A study of Mus musculus with 24 samples.

Results

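The 10 genes described here are Apoa1, Apoa2, Apoa4, Apoa5, Apob, Apoc1, Apoc2, Apoc3, Apoe and Mttp, chosen by name as the major apolipoproteins and the lipid transfer protein that loads them, out of 27962 gene names on the array. All 10 were found under these names. They were represented by 16 of the 41174 probes that remained after control spots and flagged outlier spots were left out: 5 probes for Apob, 2 each for Apoa5 and Apoc3, and 1 for each of the other 7 genes. Where a gene had several probes, the one with the highest mean intensity was taken as its main probe.

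Lipoproteins carry triglyceride and cholesterol ester through the blood inside a shell of phospholipid and apolipoproteins. ApoB is the large structural protein of very low density lipoprotein made in the liver and of chylomicrons made in the small intestine, and microsomal triglyceride transfer protein, encoded by Mttp, adds lipid to it in the endoplasmic reticulum. ApoA-I and apoA-II form high density lipoprotein, the C apolipoproteins and apoA-V set how fast lipoprotein lipase clears triglyceride, and apoE binds the receptors that take remnants back into the liver. Hepatocytes make all of these, enterocytes of the small intestine make apoB, apoA-I, apoA-IV and Mttp in quantity, and the colon has little part in lipoprotein secretion.

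The question set by the design was whether selenium and folate given from weaning altered mRNA abundance in mice kept on a high-fat diet. All mice were female C57BL/6 offspring of dams fed HF-low, which is rich in fat and poor in both selenium and folate, for 7 days before mating and throughout gestation and lactation. At weaning, at about 28 days, 6 mice stayed on HF-low (HF-low-low) and 6 were moved to HF-suf, which is as rich in fat but supplies both nutrients in adequate amounts (HF-low-suf). Tissues were taken when the mice were 12 weeks old. There was no group on a normal-fat diet and none from dams fed adequate selenium and folate, so every group shared the high-fat diet and the low maternal supply.

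RNA of whole colon and of liver was taken from each of the 12 mice, which gave 4 groups of 6 arrays on 6 slides, each slide carrying 1 array of every group. The tissue sample was labelled with Cy3, and a pool of RNA was labelled with Cy5 as the reference on every array, with no dye swap. The labels give this pool as colon and liver RNA of all mice, and the methods as intestinal and liver RNA. Lactase, Lct, a gene of the small intestine, averaged -4.21 in the livers and -4.46 in the colons, and the muscle actin gene Acta1 -4.68 and -4.66. Both thus read far below the pool in both tissues. Whether the pool held other tissue, or the dyes differed for these probes, was not tested. Values are log2 ratios of Cy3 to Cy5 after normexp background correction and loess. A positive value therefore means more of the transcript in the sample than in the pool. The ratio compares 1 probe between arrays and is not a level that can be set against another probe. Because tissue was extracted whole, fewer cells of a type and less RNA per cell cannot be told apart.

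Over its local background, Cy3 signal was 3.78-fold to 7.20-fold at the median spot of an array, and 26.1% to 71.9% of the spots were well above background in Cy3. On each array 5 to 24 spots were saturated in Cy5. No spot of the 16 member probes was among them on any of the 24 arrays, and none was saturated in Cy3. The brightest members were nevertheless read from the second, low-gain scan: the Cy5 signals of Apoc1 and Apoe, at 182649 to 386549, were all of this kind and lay below the ceiling of about 588783 to 596054 reached by the brightest spot of an array. The raw Cy5 signal of the common pool was not always alike on liver and colon arrays. For Apoe it was 182649 to 326131 on liver arrays and 330876 to 386549 on colon arrays. For Apoc3 it was 25420 to 43221 on liver arrays and 18298 to 25115 on colon arrays. The ratios of Cy3 to Cy5 use these signals, and their part in the tissue differences was not tested. Both tissues carried the markers of their labels. The 6 measured hepatocyte markers averaged 1.90 to 2.49 in the livers and -3.85 to -3.28 in the colons, and the 9 colon epithelium markers 0.40 to 1.03 in the colons and -4.22 to -3.03 in the livers.

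Member probes that bear on the results below are shown 5′ to 3′ as printed on the array, with their positions on mouse build mm7 as the scanner files give them. The first 3 belong to the main apolipoproteins of high density lipoprotein and to apoA-IV. The Apoa1 probe lies at chr9:46187961-46188020 and the Apoa2 probe at chr1:171195820-171195879, both on the plus strand. The Apoa4 probe also reads along the plus strand, and its 60 bases cover 744 bases of the genome at chr9:46199701-46200444, so it crosses at least 1 intron.
Apoa1: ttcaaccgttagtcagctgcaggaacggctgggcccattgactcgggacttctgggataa
Apoa2: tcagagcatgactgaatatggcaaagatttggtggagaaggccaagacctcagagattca
Apoa4: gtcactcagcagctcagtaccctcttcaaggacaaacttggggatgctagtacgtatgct

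The next pairs are shown because they read the same transcript at neighbouring places, so that agreement between them can be judged. The 2 Apoc3 probes, on the minus strand at chr9:46191393-46191452 and chr9:46191403-46191462, share 50 bases, given in capitals. The main Apob probe, on the plus strand at chr12:7972307-7972366, begins 1 base after the end of the other Apob probe printed here, at chr12:7972247-7972306.
Apoc3, main probe: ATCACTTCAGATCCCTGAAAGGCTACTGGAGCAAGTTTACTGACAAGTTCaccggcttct
Apoc3, second probe: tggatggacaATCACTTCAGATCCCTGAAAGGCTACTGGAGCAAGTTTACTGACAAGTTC
Apob, second probe: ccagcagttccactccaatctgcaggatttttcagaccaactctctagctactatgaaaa
Apob, main probe: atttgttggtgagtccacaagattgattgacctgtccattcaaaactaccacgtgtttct

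The last pair are the Apoe probe, on the minus strand at chr7:17378757-17378816, which was printed on 10 spots of each array, as was that of Apoa1, and the Mttp probe, on the minus strand at chr3:137903223-137903282, which was printed once and gave a weak Cy5 reading on 1 array.
Apoe: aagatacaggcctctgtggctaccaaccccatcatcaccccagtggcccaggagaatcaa
Mttp: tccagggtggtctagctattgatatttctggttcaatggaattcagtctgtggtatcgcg

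All 10 members were higher in liver than in colon. The mean difference ran from 3.12 log2 units for Mttp to 7.22 for Apoc1, which is 8.72-fold to 149-fold as processed here, with the Mttp fold resting on a colon signal near background and ranging from 5.56 to 21.8 with the scaling. In each of the 10 genes the liver value was above the colon value of the same animal in 12 of 12 mice. With the mouse as a random block in limma, all 10 passed an adjusted P under 0.05 with a difference of more than 4-fold, a threshold passed in this direction by 2.41% of all probes. The largest adjusted P of the 10 was 4.49e-10, that of Mttp. The exact permutation test over the 4096 sign changes of the 12 within-mouse differences gave P = 0.000488 for each gene, the smallest it can give.

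**Figure D1:**
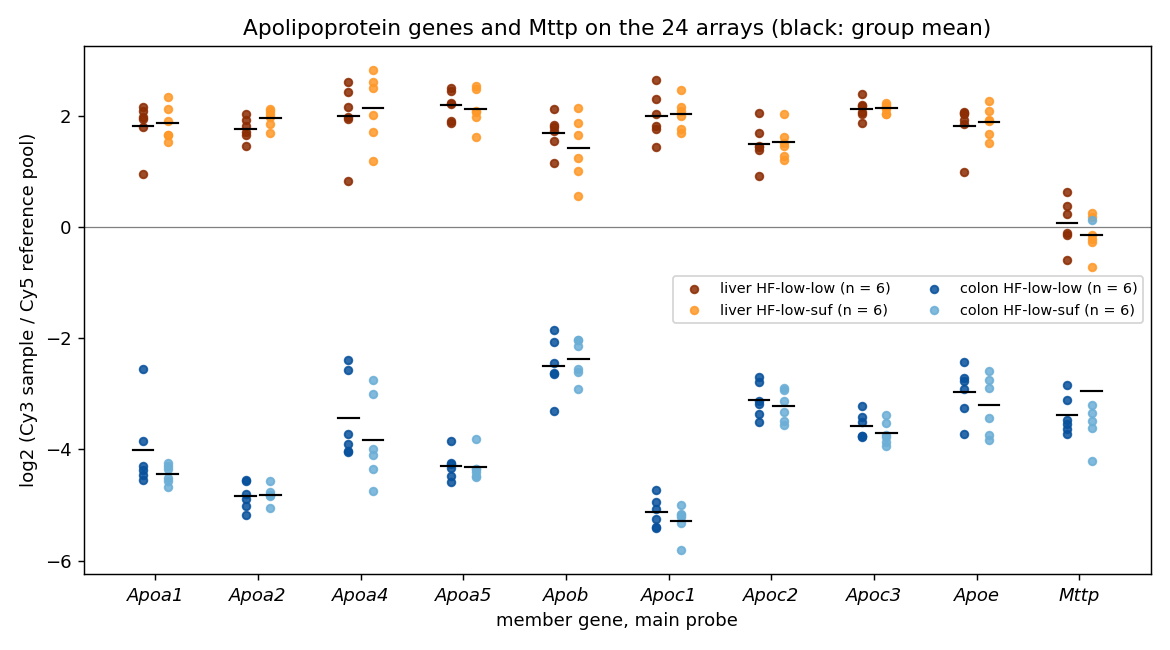
Log2 ratio of sample to reference pool (y axis) for the main probe of each member gene (x axis) on the 24 arrays; each point is 1 mouse, colours mark the 4 groups of 6, and black lines are group means. Livers and colons form separate bands for every gene except Mttp, where 1 colon, at 0.12, lies among the livers.

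For Apob the 12 livers read 0.55 to 2.14, with a median of 1.69, and the 12 colons -3.31 to -1.85, with a median of -2.50. Every liver was above every colon. The difference was 3.99 ± 0.16 (SE, n = 12 mice; adjusted P = 1.15e-17 in limma), or 15.9-fold with a 95% interval of 12.7 to 19.9. The probe that ends where the main probe begins gave 4.06 ± 0.16. Probes at chr12:7963823-7963882, chr12:7954595-7956804 and chr12:7967854-7967913 gave smaller differences of 3.40, 2.92 and 2.06. Those 3 probes were dimmer, with median Cy3 signals in liver of 4038, 1146 and 617 against 19417 for the main probe, and were well above background in 10, 3 and 2 of the 12 colons. All 5 probes were higher in liver in 12 of 12 mice.

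The Mttp livers read -0.72 to 0.63, with a median of -0.13. Its colons read -4.21 to -2.84 on 11 arrays and 0.12 on the array of HF-low-suf replicate 6, so that 1 colon overlapped the livers. On that array the Cy5 signal of the probe was 113, against 4122 to 6171 on the other 11 colon arrays, while its Cy3 signal of 164 was close to the 181 to 428 of the others. The spot carried no outlier flag. The high ratio thus came from the reference channel of 1 spot, and the sample channel was not high. The liver minus colon difference was 3.12 ± 0.28, and 3.43 without this array. Its fold of 8.72 was 5.56 with median centring and 21.8 with the Feature Extraction signals. Mttp was well above background in all 12 livers but in only 2 of the 12 colons, 1 in each diet group, so the colon side rests on signals near background.

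**Figure D2:**
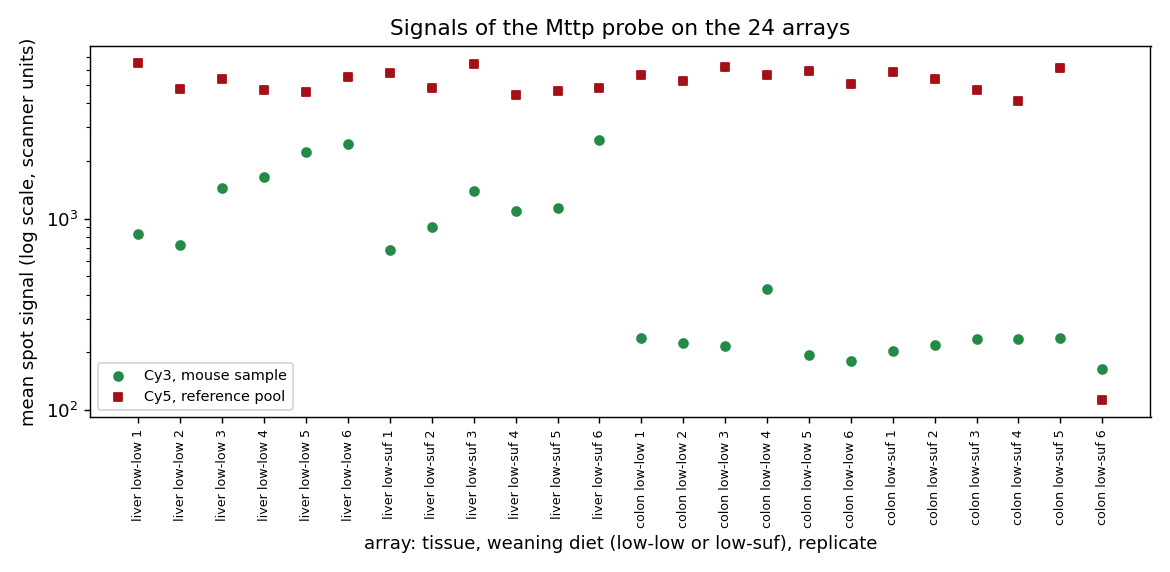
Mean spot signal of the Mttp probe (y axis, log scale, scanner units) in Cy3, the mouse sample, and Cy5, the reference pool, on the 24 arrays (x axis, by tissue, weaning diet and replicate). The Cy5 signal of colon HF-low-suf replicate 6, at 113, stands apart from those of the other colons, at 4122 to 6171, whereas its Cy3 signal of 164 lies near those of the other colons.

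The pair that builds high density lipoprotein separated the tissues further than Apob did. Apoa1 was 0.94 to 2.33 in the livers (median 1.92) and -4.67 to -2.56 in the colons (median -4.36). Apoa2 was 1.46 to 2.13 in the livers (median 1.89) and -5.17 to -4.56 in the colons (median -4.82). No colon reached a liver for either gene. The difference was 6.07 ± 0.17 for Apoa1 (67.0-fold, adjusted P = 2.80e-21) and 6.68 ± 0.09 for Apoa2 (103-fold, adjusted P = 3.96e-28). Of these genes Apoa2 varied little between mice of one diet, with an SD of 0.18 in liver and 0.21 in colon, and Apoa1 more, with 0.38 and 0.55.

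Apoa4 and Apoa5 lie beside Apoa1 and Apoc3 on chromosome 9. Apoa4, which is made on feeding with fat, was the most variable member in liver, reading 0.83 to 2.82 there (median 2.09) and -4.74 to -2.38 in colon (median -3.94). Its within-diet SD was 0.62 in liver and 0.77 in colon, against medians of 0.26 in both tissues over the probes that were well above background on all 12 arrays. The difference was nevertheless 5.70 ± 0.25 (51.8-fold, adjusted P = 7.89e-17), and 85.6-fold with the Feature Extraction signals. Apoa4 was well above background in 7 of 12 colons. Apoa5, a liver-made activator of triglyceride clearance, read 1.61 to 2.53 in liver and -4.59 to -3.82 in colon, a difference of 6.46 ± 0.11 (88.0-fold). Its second probe gave 5.15 ± 0.11 (35.4-fold), smaller than the main probe but in the same direction in 12 of 12 mice.

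Among the C apolipoproteins, Apoc1 had the largest difference of the 10 genes as processed here, though not with Cy3 alone, where Apoa5 (6.79) and Apoa2 (6.76) were above it (6.74), or with the Feature Extraction signals, where Apoa5 was (6.83 against 6.71). It read 1.43 to 2.64 in liver (median 2.02) and -5.81 to -4.72 in colon (median -5.20), a difference of 7.22 ± 0.12 (149-fold, 95% interval 125 to 177). Apoc2, whose protein is the cofactor of lipoprotein lipase, read 0.92 to 2.05 in liver and -3.56 to -2.69 in colon, a difference of 4.67 ± 0.12 (25.4-fold). Apoc3, whose protein slows the clearance of triglyceride-rich particles, was the steadiest member in liver. Its livers read 1.87 to 2.39 with a within-diet SD of 0.14, its colons -3.95 to -3.23 with an SD of 0.22, and its difference was 5.76 ± 0.08 (54.2-fold, and 82.8-fold with Cy3 alone). The overlapping Apoc3 probe gave 5.64 ± 0.09, within 0.12 log2 units of it.

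Apoe, which macrophages and other cells also make, read 0.99 to 2.27 in liver (median 1.93) and -3.83 to -2.42 in colon (median -2.90). The difference was 4.94 ± 0.15 (30.7-fold, adjusted P = 2.44e-20). It was the member whose difference shrank most when the Cy3 channel was used alone, to 4.14 (17.6-fold). The 9 macrophage markers averaged -1.25 to -0.27 in the colons and -0.30 to 1.63 in the livers, and their part in the Apoe values was not tested. The 10 spots of the Apoe probe on 1 array differed by an SD of 0.02 in liver and 0.06 in colon at the median, against 0.35 and 0.50 between mice of one diet, and those of Apoa1 by 0.03 and 0.05. The repeat spots cover spot noise, but not labelling, slide or scan day.

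**Figure D3:**
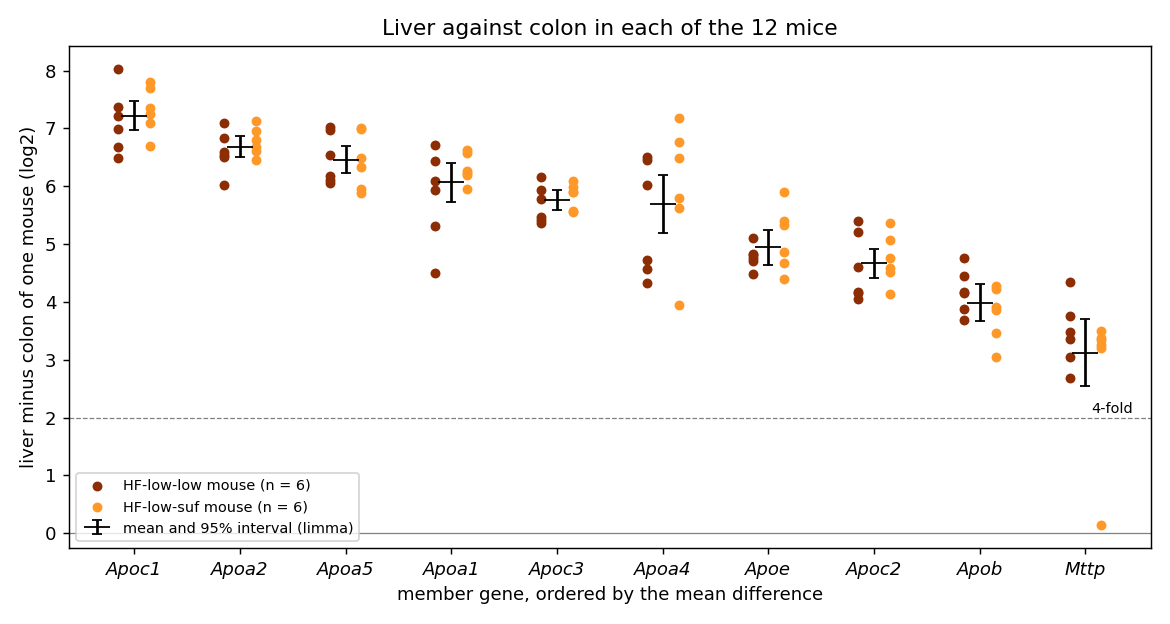
Liver minus colon difference in log2 units (y axis) for each of the 12 mice, coloured by weaning diet, with the limma mean and its 95% interval in black; member genes on the x axis are ordered by the mean, and the dashed line marks 4-fold. Every point is above 0; the single Mttp point at 0.14 is the mouse whose colon array had the weak Cy5 spot.

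In the order of the differences, Apoc1 was above Apoa2 in 12 of 12 mice, an order of the means that turned with Cy3 alone, as did those of Apoa2 and Apoa5, of Apoa1 and Apoc3 and of Apoe and Apoc2. Each further pair of neighbours in that order (Apoa2, Apoa5, Apoa1, Apoc3, Apoa4, Apoe, Apoc2, Apob, Mttp) kept its order in 6 to 11 of 12 mice, and the mean gap between neighbours was below its SD for all of these pairs except Apoc2 and Apob, at 0.68 with an SD of 0.62. Every liver lay above every colon for 9 of the 10 main probes, all but Mttp, which was true of 5.97% of all probes.

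The other genes of the pathway were higher in liver less uniformly. Of 95 genes on 6 pathway lists 90 were measured. An adjusted P under 0.05 was reached by 56 that were higher in liver and 18 that were higher in colon, against 19.4% and 19% of all probes. More than 4-fold differences were found for 26 toward liver and for 3 toward colon, the latter against 2.15% of all probes. Of the 8 measured apolipoproteins outside the 10, 6 were more than 4-fold higher in liver, with the largest differences for Apoh (8.27), Apof (7.73) and Apoc4 (6.80), while Apod (-0.22, adjusted P = 0.212) and the apoB48 receptor gene Apobr (0.14, adjusted P = 0.557) did not pass in limma, both with signals near background on most arrays of both tissues.

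Among 24 genes of lipoprotein assembly and secretion, 13 were higher in liver and 5 in colon. The largest differences toward liver were those of the fatty acid binding protein Fabp1 (8.23), the lipid hydrolase Aadac (4.31) and Ces1d (3.37), a carboxylesterase named Ces3 in the files. Toward colon they were those of the sorting receptor Sort1 (-3.51, well above background in 4 of the 12 livers), the cholesterol esterifying enzyme Soat1 (-1.69, in 9 of 12) and the monoacylglycerol acyltransferase Mogat2 (-1.50).

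Lipases and plasma remodelling factors were higher in liver for 9 of 13 genes and in colon for 3. Pon1 (8.22) and Saa4 (4.98) were among those higher in liver, though well above background in only 4 and 6 of the 12 colons, and the serum amyloid genes Saa1 (-1.56) and Saa2 (-1.17) and the lipase Lpl (-0.93) were those higher in colon. Of 13 lipoprotein receptor genes 8 were higher in liver, among them Scarb1 (2.85) and Sdc1 (1.19), and 3 in colon, among them Lrpap1 (-0.28) and Cubn, which was not well above background in any liver. Of 8 sterol efflux and transport genes 5 were higher in liver, among them Abcg5 (3.41), Abca1 (2.61) and Abcg8, which was not well above background in any colon, and 2 in colon, Abca7 (-2.19) and Npc2 (-0.63). Of 24 transcription factors that act on apolipoprotein genes 15 were higher in liver, with Creb3l3 (3.91), Prox1 (2.59) and Nr1h3 (2.33) ahead, and 5 in colon, with Srebf2 (-1.99), Foxa1 (-1.21, well above background in 6 of the 12 livers) and Esrra (-1.12) ahead. Hnf4a, a nuclear receptor among these factors, differed by 0.44 toward liver (adjusted P = 1.69e-05 in limma), with every liver above every colon. Its part in the member differences was not tested. The median difference was 5.73 over the 10 members and 0.02 over all probes.

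Promoter sequence was examined because the members moved together between the tissues. RefSeq windows of the 250 bases before the start, on build GRCm38.p6, were held for 8 of the 10 members, all but Apoc1 and Apoc3, with 12 windows in all. Matches on either strand were sought for TATAAA, for CAAAGNNCA, a form of the HNF4 site, for the DR-1 element, a direct repeat bound by nuclear receptors, and for TGTTTAC, a forkhead motif. The first, TATAAA, was present in 5 of the 12 windows and in 12.4% of the 32851 windows of all genes, CAAAGNNCA in 2 and in 5.49%, TGTTTAC in 1 and in 3.17%, and the direct repeat in none of the 12 and in 0.0335%. The windows of Apoa5 overlap, as do some of those of Apoe, so the 12 are not separate cases. The 2 windows with CAAAGNNCA follow, with the matches in capitals. They are Apoa4 at chr9:46240594-46240843 and Apob at chr12:7977427-7977676, both on the plus strand. In the Apob window the first match reads on the other strand, and the second is TATAAA.
Apoa4: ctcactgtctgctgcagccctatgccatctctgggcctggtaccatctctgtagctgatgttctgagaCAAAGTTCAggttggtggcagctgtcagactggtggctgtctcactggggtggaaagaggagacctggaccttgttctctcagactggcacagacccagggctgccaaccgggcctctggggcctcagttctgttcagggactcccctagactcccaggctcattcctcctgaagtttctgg
Apob: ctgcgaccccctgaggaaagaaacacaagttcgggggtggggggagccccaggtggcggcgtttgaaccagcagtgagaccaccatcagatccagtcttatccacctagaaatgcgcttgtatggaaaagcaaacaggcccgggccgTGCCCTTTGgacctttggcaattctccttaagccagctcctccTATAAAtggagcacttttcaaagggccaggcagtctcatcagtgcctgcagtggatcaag

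The second comparison asked whether the weaning diet was followed by a difference in these genes. None of the 10 members passed the study's threshold of an unadjusted P under 0.01 with a change of more than 1.5-fold, in liver, where 0.117% of all probes did, or in colon, where 0.168% did. Under limma none had an unadjusted P under 0.05 either, in liver or in colon, against 2.13% and 2.98% of all probes. The values of the 6 HF-low-suf and the 6 HF-low-low mice overlapped for all 10 members in both tissues; they did not overlap for 0.017% of all probes in liver and 0.0777% in colon. Differences are given as HF-low-suf minus HF-low-low, by the dyes stated in the labels and the methods, and their signs run opposite to those in the study's tables of changed genes.

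In liver the differences ran from -0.28 for Apob to 0.20 for Apoa2, and 7 of the 10 were above 0, as were 51.4% of all probes. That count rested on single arrays: it was 1 of 10 without liver HF-low-low replicate 3, 3 of 10 without liver HF-low-suf replicate 1, and 4 of 10 without HF-low-suf replicates 1 and 2, the livers with the most adipose and muscle transcripts. Apob read 1.14 to 2.12 in HF-low-low livers (median 1.76) and 0.55 to 2.14 in HF-low-suf livers (median 1.45). The 2 groups overlapped, with 3 of the 6 HF-low-suf livers inside the HF-low-low range, and the difference was -0.28 ± 0.25 (SE, limma P = 0.284, exact permutation P = 0.344). Over the alternatives run, including arrays left out in turn, this difference was -0.45 to -0.11. The 4 other Apob probes gave -0.37 to -0.17. Apoa2 read 1.46 to 2.03 in HF-low-low (median 1.76) and 1.69 to 2.13 in HF-low-suf (median 2.01). The groups overlapped from 1.69 to 2.03. Apoa2 had the lowest P of the members in liver, at 0.155 in limma for a difference of 0.20 ± 0.13 (exact permutation P = 0.0952, the lowest in either tissue).

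Mttp livers read -0.59 to 0.63 in HF-low-low and -0.72 to 0.26 in HF-low-suf, a difference of -0.22 ± 0.21 (limma P = 0.329, exact permutation P = 0.351). It was -0.35 to -0.05 over the alternatives run, including arrays left out in turn. The other 7 members differed by -0.06 (Apoa5) to 0.15 (Apoa4), each by less than its within-diet SD. For 7 of the 10 members the 95% interval in liver lay inside a 1.5-fold change in either direction. The exceptions were Apoa4 (-0.53 to 0.83), Apob (-0.82 to 0.26) and Mttp (-0.68 to 0.24), where a change of that size could not be told from none with 6 mice a group.

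**Figure D4:**
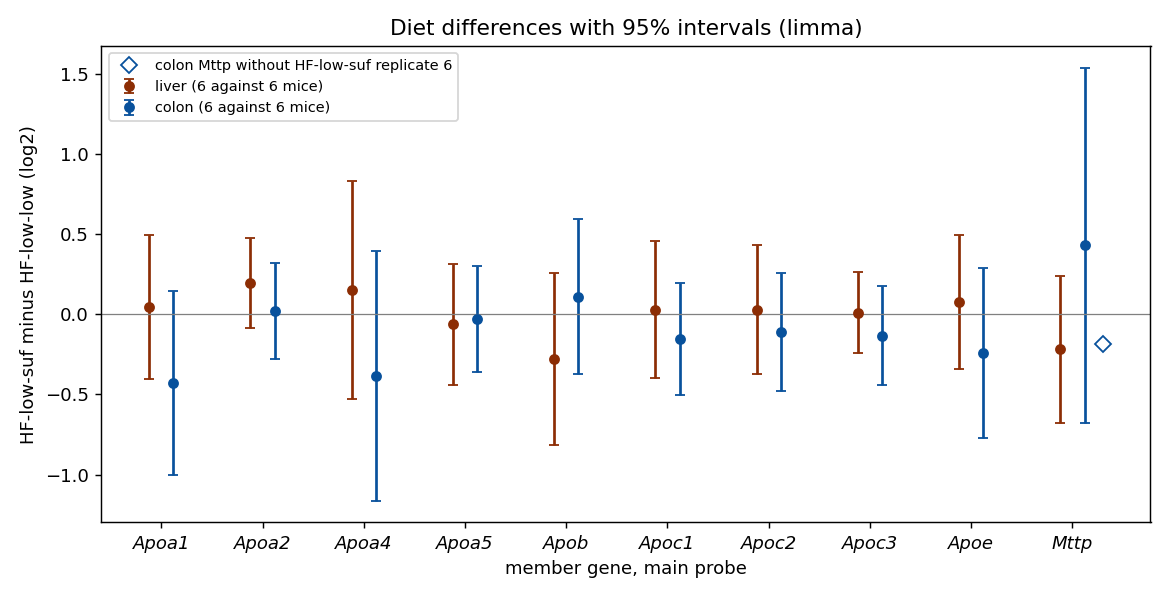
Difference HF-low-suf minus HF-low-low in log2 units (y axis) for each member gene (x axis) in liver and in colon, 6 against 6 mice; points are limma estimates and bars their 95% intervals, all of which include 0. The open diamond gives colon Mttp without HF-low-suf replicate 6, at -0.18 in place of 0.43.

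In colon the differences ran from -0.43 for Apoa1 to 0.43 for Mttp, and 3 of the 10 were above 0, as were 48.3% of all probes, a count of 2 to 4 with 1 colon left out in turn and of 6 with median centring. Both ends of that range were set by 1 array. Apoa1 read -4.56 to -2.56 in HF-low-low colons (median -4.33) and -4.67 to -4.24 in HF-low-suf colons (median -4.43). The difference of -0.43 ± 0.27 (limma P = 0.134, exact permutation P = 0.180) had the lowest limma P of the members in either tissue. A single HF-low-low colon, replicate 4, stood above the rest at -2.56, and without it the difference was -0.14.

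Mttp colons read -3.71 to -2.84 in HF-low-low (median -3.50) and -4.21 to 0.12 in HF-low-suf (median -3.41). The difference of 0.43 ± 0.52 (limma P = 0.423, exact permutation P = 0.781) rested on the array with the weak Cy5 spot, and without it was -0.18. On the Cy3 channel alone the difference was -0.42, though that Cy5 reading still enters there through the normalization. This value reached an unadjusted P under 0.05 in limma but not the diet threshold, with 10 of the 12 colon spots not well above background.

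Apoa4 colons read -4.04 to -2.38 in HF-low-low (median -3.82) and -4.74 to -2.75 in HF-low-suf (median -4.04). The groups overlapped, and the difference was -0.38 ± 0.37 (limma P = 0.312, exact permutation P = 0.413). Over the alternatives run, including arrays left out in turn, it was -0.60 to -0.17, the latter without HF-low-low replicate 4. Apoe differed by -0.24 ± 0.25, Apob by 0.11 ± 0.23, and the other 5 members by -0.15 to 0.02. Over the same alternatives Apoe was -0.39 to -0.10 and Apob -0.28 to 0.50. In colon 5 of the 10 intervals lay inside a 1.5-fold change, those of Apoa2, Apoa5, Apoc1, Apoc2 and Apoc3.

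The difference between the diet differences of the 2 tissues was tested as well, with the mouse as a random block. No member reached an unadjusted P under 0.01, which 1.62% of all probes did, and none one under 0.05, against 6.43%. The lowest P was that of Apoa1, at 0.164 for 0.47 ± 0.33, and without colon HF-low-low replicate 4 its value was 0.19. Of the 90 measured pathway genes none passed the diet threshold in either tissue. The unadjusted P was under 0.05 for none in liver and for 1 in colon, the triglyceride synthesis gene Dgat2 (-0.52). For the difference between tissues 3 of the 90, Gpihbp1, Npc1 and Rora, were under 0.05. All 6 adipose markers had lower means in HF-low-suf colons, with a median difference of -0.41, and higher means in HF-low-suf livers, with a median of 0.76, and 2 of the 6 were under 0.05 for the difference between tissues. In liver 5 of the 6 were well above background on at most 6 of 12 arrays, and the mean of the 6 was 2.84 in HF-low-suf replicate 1 against a median of -0.59 over the 6 HF-low-suf livers. Gpihbp1 had the same signs (0.43 in liver and -0.23 in colon). The part of adipose tissue in the Dgat2 and Gpihbp1 values was not tested.

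Colon HF-low-low replicate 4 was the highest of the 12 colons for 3 members, Apoa1 (-2.56), Apoa4 (-2.38) and Apob (-1.85), and the second highest for Apoc2 (-2.79) and Mttp (-2.84), the latter behind the spot with the weak Cy5 reading. It was the lowest of the 12 for Apoa2 (-5.17) and Apoa5 (-4.59). Enterocytes of the small intestine are known to express Apoa1, Apoa4 and Apob. This is background only, and the enterocyte markers given below were not uniformly high on this array. Cy3 was bright on this array, with 1180 spots read from the low-gain scan against 315 to 648 on the other colons. The raw Cy3 signal of all 10 members was the highest of the 12 there, so only the ratios after loess are compared. For Apoa2 raw Cy3 was 2249 and Cy5 131661 there, against colon medians of 1700 and 131089. For Apoa5 they were 575 and 24074, against 437 and 22368. The low ranks of Apoa2 and Apoa5 thus hold for the ratio after loess and not for the raw signals.

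The genes whose pattern over the 12 colons was most like that of Apoa1, among named probes well above background on all 12 and after each diet mean was taken off, were the Paneth cell defensins Defcr4, Defcr23 and Defcr3 (Pearson r = 0.992, 0.991 and 0.989, given as a description of 12 arrays that share slides and scan days). On HF-low-low replicate 4 Defcr4 read -3.04 and in the other 11 colons -6.80 to -5.32. The genes most like Apoa4 were lactase, Lct (r = 0.912), Apoc2 (r = 0.899) and Fabp1 (r = 0.883). Lct read -3.54 on HF-low-low replicate 4, the highest of the 12, with -5.18 to -3.64 in the others.

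Of the 6 measured enterocyte markers of the small intestine, Lct was highest and Alpi and Rbp2 second highest on this array. Fabp6 and Slc10a2 ranked 7 and 10 of 12, and Slc5a1 was the lowest. The mean of the 6 markers was -1.48 to -0.66 in HF-low-low colons and -1.08 to -0.63 in HF-low-suf colons, with its highest values on other arrays. The part of small-intestinal RNA in the Apoa1 and Apoa4 values of colon was not tested.

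**Figure D5:**
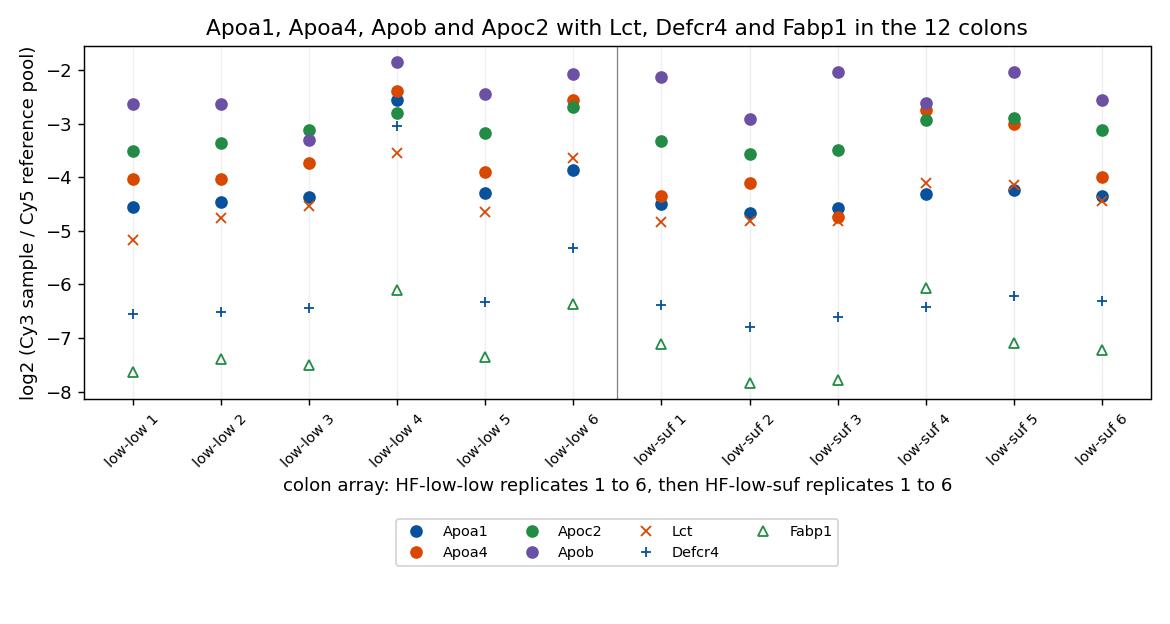
Log2 ratio of sample to reference pool (y axis) in the 12 colons (x axis, by weaning diet and replicate) for Apoa1, Apoa4, Apob and Apoc2 (filled circles), with the lactase gene Lct, the Paneth cell defensin gene Defcr4 and the fatty acid binding protein gene Fabp1. On HF-low-low replicate 4, Apoa1 at -2.56 and Defcr4 at -3.04 stand above all the other colons, and Apoa4 and Fabp1 are high there and on HF-low-low replicate 6 and HF-low-suf replicate 4.

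Apoa4 in colon also followed the scan day, which was shared by slides 1 to 3 and by slides 4 to 6 with every group on both days. Its 6 colons of the first day read -4.74 to -3.73 (median -4.07) and those of the second -3.99 to -2.38 (median -2.88). Apoa1 colons read -4.67 to -4.36 on the first day and -4.35 to -2.56 on the second, so the days nearly touched without overlap. The share of all probes separated by scan day was not counted, so it is not known whether Apoa1 is unusual in this. Within the days the diet difference in colon was -0.12 and -0.73 for Apoa1 and -0.47 and -0.30 for Apoa4, so its sign was the same on both.

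Liver HF-low-low replicate 3 was the lowest of the 12 livers for 6 members, namely Apoa1 (0.94), Apoa4 (0.83), Apoc1 (1.43), Apoc2 (0.92), Apoc3 (1.87) and Apoe (0.99). Of the 6 hepatocyte markers albumin (-0.04), Fgb (0.66) and Cps1 (1.65) were also lowest of the 12 there, whereas Ttr, Tat and Cyp7a1 ranked 8, 10 and 7 from the top. Mttp, at 0.23, was not low. The part of hepatocyte RNA content in these values was not tested. Without this liver the diet difference was -0.13 for Apoa1, -0.09 for Apoe, -0.08 for Apoa4, Apoc1 and Apoc2 and -0.04 for Apoc3, in place of 0.05, 0.08, 0.15, 0.03, 0.03 and 0.01, and none of these passed the threshold.

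Over the 45 pairs of members, Pearson r after removal of the diet means had a median of 0.39 in the 12 livers (-0.64 to 0.92, with 21 pairs above 0.5) and of 0.26 in the 12 colons (-0.42 to 0.90, with 10 pairs above 0.5). Without liver HF-low-low replicate 3, on which 6 members were lowest, the median in liver was 0.26, with 14 pairs above 0.5. In colon the median was 0.46 without HF-low-low replicate 4, with 19 pairs above 0.5, and 0.13 without HF-low-low replicate 6, with 10 pairs above 0.5. These are descriptions of 12 arrays that share slides, scan days and the loess fit of each array.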

How the data were processed

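Each of the 24 two-colour arrays was deposited by the authors as scanner output of Agilent Feature Extraction 9.5.3.1, with probe positions on mm7. The values used were the deposited mean and local background intensity of each spot in Cy3 and Cy5, not yet normalized between channels. Feature Extraction had merged 2 scans of each slide, so bright spots come from the low-gain scan. Replicate numbers follow the slides.

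From these intensities, background was corrected with normexp (offset 50) in limma 3.58.1 (R 4.3.3), log2 ratios were normalized within each array by loess, 1639 control spots of 45018 and all outlier spots were removed, and the spots of one probe were averaged, which left 41174 probes. Liver and colon were compared in limma with the mouse as a random block (statmod 1.5.0; correlation 0.158, estimated on every 10th probe). The diets were compared within each tissue. The P-values were adjusted over all probes by the Benjamini-Hochberg method. The diet threshold, an unadjusted P under 0.01 and a change over 1.5-fold, is that of the study's methods. Single genes were also tested by exact two-sided permutation, over 924 assignments of the diets, of which the smallest possible P is 0.00216, or over sign changes within mice. Scripts were tested on simulated data.

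All 10 members are named, with the 3 pathway genes of the largest tissue difference in each direction per list and the 3 genes most like a member; Hnf4a, Dgat2, Apod, Apobr and the genes given for single arrays were picked for naming once their values were known. Some pathway genes that this rule would name are not reported here. The members, gene lists and tests were chosen with earlier results of these data known. The number of arrays and the signal over background limit the precision. Replicates are separate mice. Mouse pairing of the tissues comes from the labels; after group means were removed, colon and liver of one mouse correlated at 0.01 to 0.28 in HF-low-low and -0.03 to 0.25 in HF-low-suf. Alternatives tried were no background correction, plain background subtraction, the Feature Extraction processed signals, median centring in place of loess, Cy3 alone, saturated spots left out, the probe least often saturated, outlier spots kept, a filter on dim probes, the 2 arrays with a bright Cy5 channel or the 2 HF-low-suf livers with the most adipose and muscle transcripts left out, all 24 arrays in 1 fit, slide, scan day and mouse as blocks, each scan day alone and leaving out each array. RefSeq promoter windows are on GRCm38.p6, so none of their coordinates was set against the mm7 probe positions.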

Additional observations from a re-analysis of the deposited data

Results flagged for a closer look

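In 5 of the 40 groups of 6 arrays (10 genes in 4 groups) the highest or lowest mouse stood apart from the other 5 by the 95% limit of Dixon's test, which chance alone passes in about 1 of 20 groups, or 2 of 40. Apoa1 in colon HF-low-low replicate 4 was -2.56, and the next value was -3.86. Apoa1 in liver HF-low-low replicate 3 was 0.94 against 1.80, and Apoe in the same liver was 0.99 against 1.84. Apoa5 in colon HF-low-suf replicate 5 was -3.82 against -4.35. Mttp in colon HF-low-suf replicate 6 was 0.12 against -3.19, on the spot with the weak Cy5 reading.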

How the results depend on the processing

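All 10 members passed the tissue threshold, 0 passed the diet threshold in liver or in colon, and 0 had an unadjusted P under 0.01 for the difference between tissues, where no fold was required, under every alternative that was run, including the arrays left out in turn (10 to 10 and 0 to 0). The counts over all probes moved more. They were 739 with median centring and 1493 with the Feature Extraction signals against 993 for tissue, 2 to 137 against 48 for diet in liver, 3 to 278 against 69 in colon, and 68 to 774 against 666 for the difference between tissues, with the lowest diet counts under the filter on dim probes. With the replicate block the counts were 131 in liver, 92 in colon and 627 for the difference, each with 0 members, and with the mouse as a fixed replicate block 993 with 10 members. Arrays of the 2 diets on one slide did not deviate together in a uniform way (r of -0.50 to 0.53 in liver and -0.09 to 0.24 in colon, over 0.1 for 2 and 3 of 6 slides). These values cannot exclude a slide effect, and the main diet fits did not use the slide as a block. Some differences that had not passed changed sign with a move larger than their SE, and the cause was not tested. In colon these were Apoa5 at 0.14 and Apoc3 at 0.027 with median centring, Mttp at -0.42 with Cy3 alone, at -0.17 on the first scan day and at -0.18 to 0.68 with 1 array left out in turn, and Apob at -0.28 on the second scan day. For the difference between tissues they were Mttp at 0.13 with Cy3 alone and Apob at 0.088 on the second scan day. Smaller moves across 0 also occurred, in liver for Apoa1 (to -0.13), Apoa4 (-0.13), Apoc2 (-0.10), Apoe (-0.09), Apoc1 (-0.08), Apoc3 (-0.04) and Apoa5 (0.04), in colon for Apoa2 (-0.045) and Apoc2 (0.04), and for the difference between tissues for Apoa5 and Apoc2. The tissue fold moved by over 1.5 times for Mttp (5.56 with median centring and 21.8 with the Feature Extraction signals, against 8.72), Apoa4 (85.6 with the latter, against 51.8), Apoe (17.6 with Cy3 alone, against 30.7) and Apoc3 (82.8 with Cy3 alone, against 54.2). Colon Mttp was not tested under the filter on dim probes. The members with signals near background in colon, Mttp and Apoa4, have the least certain tissue folds.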
